A study of Arabidopsis thaliana with 48 samples.

Results

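The miRNAs numbered 770 to 870 in Arabidopsis thaliana are mostly young, lineage-specific miRNAs with 1 or a few precursors each. They were taken from the annotated miRNAs in the deposited tables by family number alone, any arm or letter included, with 15 families of that range left out (miR771, miR779, miR780, miR824, miR825, miR827, miR828, miR843, miR845, miR848, miR856, miR858, miR860, miR867 and miR869). This gave 80 of 428 annotated miRNAs, from 45 families and with 75 distinct mature sequences. Small RNAs of 18 to 30 nt were sequenced from closed flower buds of soil-grown plants in long days (16 h light, 8 h dark) that received no treatment. Plants were wild type (Col0) or carried atprmt5-2 or atprmt5-6, mutant alleles of PRMT5, a protein arginine methyltransferase. For each of the 3 genotypes, total small RNA and the small RNA recovered by immunoprecipitation of the effector protein AGO1 (AGO1-IP) were sequenced in 2 libraries each, described as biological duplicates, which gave 6 groups and 12 libraries. The tables hold miRNAs only, so neither the PRMT5 transcript nor bud markers could be checked, and fewer cells of a type and less miRNA per cell cannot be told apart.

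A plant miRNA is cut from a hairpin precursor by a Dicer-like enzyme as a duplex of a 5p and a 3p strand, and 1 strand is kept by an Argonaute protein that it guides to complementary transcripts. AGO1 is the main carrier of plant miRNAs and is known to favour strands that begin with U, whereas AGO2 is known to favour A and AGO5 C. Young miRNAs are usually expressed at low levels, and several are known to be cut by DCL4 from long, nearly perfect hairpins instead of by DCL1.

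The mature sequences of the members that the results turn on are shown because the first base and the seed (bases 2 to 8, in capitals) set them apart. They were read from the RefSeq TAIR10.1 genome at the annotated miRNA positions, and all 80 members matched 1 annotation each. Coordinates below are on that build. The first set begins with U and holds the more abundant members and 2 members found mainly at 22 nt.
miR839-5p: uACCAACCuuucaucguuccc
miR851-5p: uCUCGGUUcgcgauccacaag
miR822-5p: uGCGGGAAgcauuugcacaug
miR823: uGGGUGGUgaucauauaagau
miR846-3p: uUGAAUUGaagugcuugaauu
miR781a and miR781b: uUAGAGUUuucuggauacuua
miR777: uACGCAUUgaguuucguugcuu
miR850: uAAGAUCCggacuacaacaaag
The second set begins with A, C or G and holds strands that were much lower in AGO1-IP than in the total fraction, beside the opposite strand where it is annotated.
miR861-3p: gAUGGAUAugucuucaaggac
miR861-5p: cCUUGGAGaaauaugcgucaa
miR829-5p: aCUUUGAAgcuuugauuugaa
miR829-3p.1: aGCUCUGAuaccaaaugauggaau
miR829-3p.2: cAAAUUAAagcuucaagguag
miR852: aAGAUAAGcgccuuaguucug
The third set is the MIR841 family, in which the 5p strands share a seed and differ at 1 base, and the 3p strands are the same sequence read from starts 2 bases apart.
miR841a-5p: uACGAGCCacuugaaacugaa
miR841b-5p: uACGAGCCacuggaaacugaa
miR841a-3p: aUUUCUAGugggucguauuca
miR841b-3p: cAAUUUCUagugggucguauu
Seeds were shared only within families, namely by these 2 miR841 5p strands, by miR781a and miR781b, by miR833a-5p and miR833b, and by the 5 identical copies of miR854.

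Values are deposited RPM, reads per 1000000 reads of the same length, and refer to 21 nt reads unless 22 nt is stated. From the RPM steps, the total fraction held 571191 to 1397552 reads of that length per library and AGO1-IP 3750509 to 8166912. One read was therefore worth 0.716 to 1.75 RPM in total libraries and 0.122 to 0.267 RPM in AGO1-IP libraries. Annotated miRNAs made up 23.0% to 32.9% of these reads in the total fraction but 70.5% to 74.8% in AGO1-IP, so a miRNA that kept its share of miRNA reads had a higher RPM in AGO1-IP. The main test was limma on log2(RPM + 1) on the 128 miRNAs whose RPM averaged at least 5 across all 12 libraries, with calls at an adjusted p under 0.05. That filter kept 15 of the 80 members, which hold 14 distinct sequences.

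Most members were listed, but at very low levels. Of the 80 members, 57 had at least 1 read of 21 nt in at least 1 library, and they came from 35 families. Only 14 had reads in all 12 libraries. Mean RPM was at least 5 for 15 members, from 1 to under 5 for 14 and under 1 for 28 of the listed members. The 2 members above 50 RPM were miR839-5p (1542 RPM, rank 20 of 428) and miR851-5p (147 RPM, rank 45). Just inside the filter stood miR844-3p (5.15 RPM) and miR829-3p.1 (5.11 RPM), and just outside it miR841a-5p (4.95 RPM) and miR852 (4.80 RPM).

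Listing followed the annotated length as well as abundance. The 21 nt tables listed reads for 1 of the 39 miRNAs annotated at 19 or 20 nt, and the 22 nt tables for 0 of 325 miRNAs annotated at 21 nt. A value of 0 for miR775, miR773b-5p and miR866-3p, each annotated at 20 nt, is therefore no sign of absence. Among the 77 members annotated at 21 nt or more, 57 (74.0%) were listed, against 315 of 389 (81.0%) of all annotated miRNAs of those lengths and 122 of 124 (98.4%) of the conserved families. The 23 members without a 21 nt read included both strands of miR774b and miR832, miR826a and miR826b, miR773b-3p, miR834, miR849, miR782, miR836 and miR853. They also included the 5 copies of miR854 and miR855, which have been described as arising from Athila retrotransposons. For miR854 and miR855 alike, 0 reads of 21 nt in an AGO1-IP library allowed up to 0.367 to 0.800 RPM, the worth of 3 reads. This limit covers counting error only. It does not cover the full length of miR855, which is annotated at 22 nt and had 0 reads of 22 nt too. miR853 is also annotated at 22 nt and miR836 at 24 nt, so their 21 nt values do not cover their full length either.

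More members were listed in the deeper fraction. Total libraries listed 29 to 33 members and AGO1-IP libraries 42 to 50. Of all 428 annotated miRNAs, total libraries listed 195 to 233 and AGO1-IP libraries 217 to 241. Of the listed members, 42 had reads in both fractions and 14 in AGO1-IP alone, each of these with 1 to 18 reads. Only miR865-5p, with 4 reads in all, had reads in the total fraction alone, and this strand begins with A. The depth gap of the fractions moves with these counts, and its part in them was not tested.

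The members made up 0.275% to 0.503% of miRNA reads per library, against 93.2% to 97.3% for the conserved families. A single member, miR839-5p, gave 59.6% to 69.6% of the members' reads in the total fraction and 79.5% to 85.3% in AGO1-IP. miR839 is among the miRNAs known to depend on DCL4 for their processing. Its mature strand lies at chr1:25279138-25279158 on the minus strand, within a noncoding RNA gene annotated on the same strand.

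**Figure D1:**
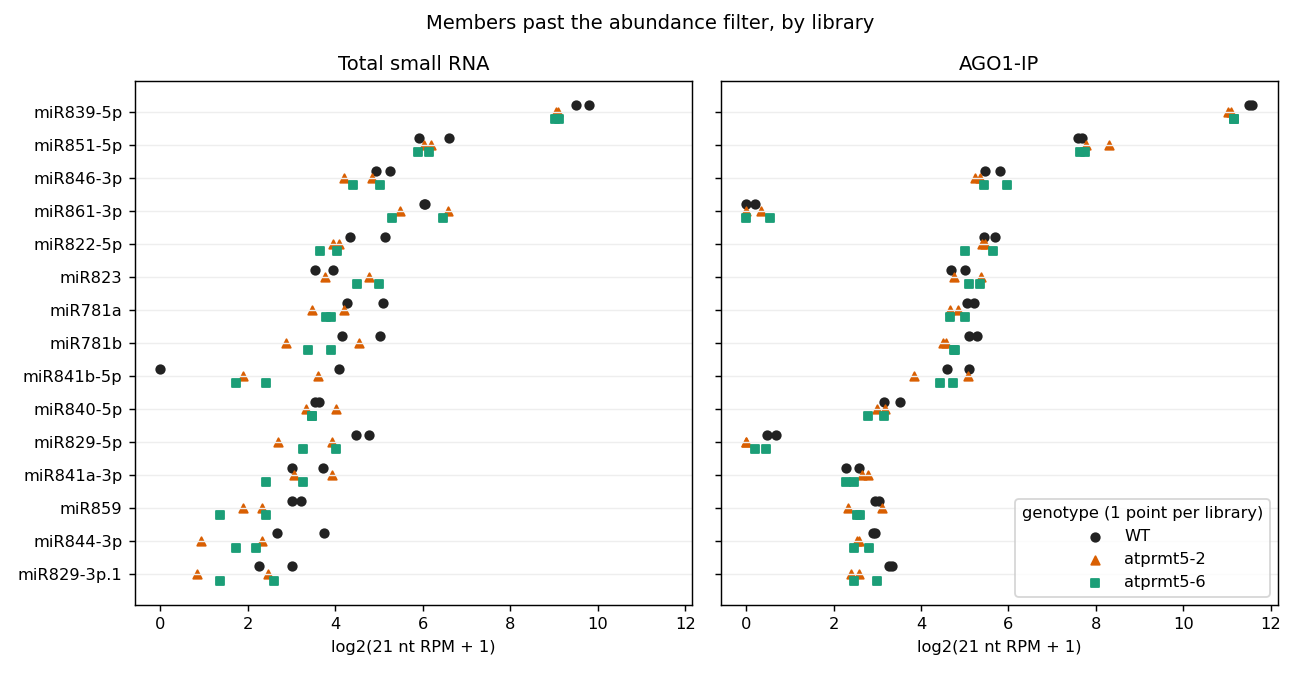
Level of the 15 members past the abundance filter in each library, as log2(21 nt RPM + 1), ordered by mean RPM, with 1 point per library and colours and symbols for genotype. miR839-5p stands above the other members in both fractions, and miR861-3p and miR829-5p are near 0 in every AGO1-IP library.

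The 2 most abundant members were both recovered at higher RPM in AGO1-IP than in the total fraction. In wild type, miR839-5p was at 884 and 720 RPM in the total fraction and at 3060 and 2886 RPM in AGO1-IP. In atprmt5-2 it was at 545 and 527 RPM against 2090 and 2167 RPM, and in atprmt5-6 at 554 and 522 RPM against 2269 and 2276 RPM. The fractions did not overlap in any genotype. The difference of AGO1-IP from total, called loading below, was 1.9 on the log2 scale in wild type (SE 0.20, limma adjusted p = 1.25e-05, n = 2 libraries a group), 1.99 in atprmt5-2 (adjusted p = 1.37e-05) and 2.08 in atprmt5-6 (adjusted p = 1.07e-05). Rescaled to the miRNA reads of each library, miR839-5p kept a positive loading of 0.37, 0.61 and 0.67, which passed the threshold in atprmt5-6 alone.

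miR851-5p, whose mature strand lies at chr3:19659646-19659666 on the minus strand, was at 59.5 and 95.6 RPM in the wild-type total fraction and at 206 and 193 RPM in wild-type AGO1-IP. In the mutants it was at 58.0 to 72.1 RPM in the total fraction and at 199 to 312 RPM in AGO1-IP. Every AGO1-IP library was above every total library. Loading was 1.39 in wild type (SE 0.29, limma adjusted p = 0.00259), 1.92 in atprmt5-2 (adjusted p = 0.000278) and 1.68 in atprmt5-6 (adjusted p = 0.000703). Rescaled to miRNA reads, the wild-type value turned to -0.12, while the mutant values were 0.56 and 0.28 and did not pass the threshold.

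In wild type, limma called 3 of the 15 members higher in AGO1-IP (miR839-5p, miR851-5p and miR823) and 2 lower (miR861-3p and miR829-5p), against 20.3% of the 128 tested miRNAs higher, 20.3% lower and 40.6% in either direction. In atprmt5-2, 4 were higher (miR839-5p, miR851-5p, miR822-5p and miR781a) and the same 2 lower, with 36.7% of all tested miRNAs higher, 18.8% lower and 55.5% in either direction. In atprmt5-6, 5 were higher (those 4 and miR846-3p) and again these 2 lower, with 40.6% of all tested miRNAs higher, 19.5% lower and 60.2% in either direction. The members' median loading was 0.55, 0.84 and 0.76 in the 3 genotypes, beside 0.23, 0.62 and 0.69 over all tested miRNAs. The members' counts and medians are thus near the background of the same tables, from which the families left out were not removed. Rescaled to miRNA reads, the median over all tested miRNAs moved to -1.27, -0.63 and -0.65 and the wild-type calls among the members became 0 higher and 8 lower. On that scale 89 of all 128 tested miRNAs were called in wild type, 4 of them higher and the rest lower.

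miR823 guides cleavage of the transcript of CMT3, a chromomethylase that keeps CHG methylation in heterochromatin. In wild type it was at 10.5 and 14.4 RPM in the total fraction and at 30.9 and 24.6 RPM in AGO1-IP, without overlap. Its loading was 1.10 in wild type (SE 0.39, limma adjusted p = 0.0436), and the call was lost when any 1 of the 4 wild-type libraries was left out (0.89 to 1.31), without the abundance filter, with edgeR and DESeq2, and after rescaling to miRNA reads, where it turned to -0.35.

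miR822-5p comes from another long hairpin known to be cut by DCL4 and guides cleavage of transcripts for DC1-domain proteins. It was at 19.3 and 34.1 RPM in the wild-type total fraction and at 50.6 and 42.5 RPM in wild-type AGO1-IP. In the mutants it was at 11.4 to 15.8 RPM in the total fraction and at 31 to 49.2 RPM in AGO1-IP. All AGO1-IP libraries of a genotype were above its total libraries. Loading was 0.83 in wild type (limma adjusted p = 0.0795), 1.41 in atprmt5-2 (adjusted p = 0.00475) and 1.48 in atprmt5-6 (adjusted p = 0.00381). The mutant calls were lost with edgeR after TMM scaling, with DESeq2, and after rescaling to miRNA reads, where they fell to 0.10 and 0.13.

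miR846-3p, whose precursor is neighbour to that of miR842 and which targets jacalin-type lectin transcripts, was at 17.2 to 36.8 RPM in the total fraction and at 36.8 to 61.1 RPM in AGO1-IP over the 3 genotypes. Its loading was 0.55, 0.78 and 0.99, and only the last, in atprmt5-6, passed the threshold (limma adjusted p = 0.0299). Rescaled to miRNA reads, it was -0.95 in wild type and -0.39 in atprmt5-6. miR781a and miR781b are annotated with 1 identical sequence on opposite strands of a single inverted repeat, at chr1:7423523-7423543 and chr1:7423585-7423605, within an intron of AT1G21200. Their reads cannot be told apart, and the tables give them nearly equal values, 16.1 and 15.3 RPM over the pooled total libraries and 29.4 and 28.6 RPM over the pooled AGO1-IP libraries. miR781a was called higher in AGO1-IP in atprmt5-2 (0.94, limma adjusted p = 0.0435) and atprmt5-6 (0.99, adjusted p = 0.0352), but its copy was not (0.84 and 1.14). Rescaled to miRNA reads, miR781a turned to -0.38 and -0.37 in these mutants and to -1.04 in wild type.

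The lower strands formed the clearer contrast. miR861-3p, which begins with G, was the fourth most abundant member over all libraries and almost absent from AGO1-IP. In total small RNA it was at 64.8 and 63.7 RPM in wild type, 95 and 43.5 RPM in atprmt5-2 and 86.6 and 38.0 RPM in atprmt5-6. In AGO1-IP it had 1 and 0 reads in wild type, 1 and 0 in atprmt5-2 and 0 and 3 in atprmt5-6. All 6 total libraries lay far above all 6 AGO1-IP libraries, of which 3 had no read. Pooled over the libraries of a genotype, RPM in the total fraction was 916 times that in AGO1-IP in wild type (121 against 1 read, exact 95% interval 161 to 36456), 748 times in atprmt5-2 (132 to 29703) and 308 times in atprmt5-6 (104 to 1509). The limma call was lower in all 3 genotypes (adjusted p = 1.77e-06, 2.41e-06 and 3.76e-06), and the fitted differences of -5.93, -5.86 and -5.59 depend on the pseudocount. The other strand of the hairpin, miR861-5p, had 4 reads in the total fraction and 1 in AGO1-IP, so no replacement strand was seen in AGO1-IP at 21 nt. The mature strand lies at chr3:17838154-17838174 on the minus strand.

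miR829-5p, which begins with A, was at 26.3 and 21.2 RPM in the wild-type total fraction and at 0.597 and 0.395 RPM in wild-type AGO1-IP, the worth of 4 and 3 reads. In the mutants it was at 5.44 to 15 RPM in the total fraction and had 0 and 0 reads in atprmt5-2 AGO1-IP and 3 and 1 in atprmt5-6 AGO1-IP. No genotype had overlapping fractions. Pooled RPM in the total fraction was 46.5 times that in AGO1-IP in wild type (exact 95% interval 20.7 to 122), at least 35.6-fold higher in atprmt5-2 when 3 reads in the 2 libraries are taken as the floor (24 against 0 reads, lower end of the exact interval 26.8), and 43.5 times in atprmt5-6, where the lower end of the interval was 15.4. limma called it lower in the 3 genotypes (adjusted p = 1.63e-05, 0.000101 and 0.000104). The calls for miR861-3p and miR829-5p held under all 13 alternatives and with each library left out.

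miR852, which begins with A, was just below the filter and moved the same way. It had 57 reads over the 6 total libraries (2.86 to 20.6 RPM) and 24 over the 6 deeper AGO1-IP libraries (0.245 to 1.33 RPM), and no AGO1-IP library reached a total library. Pooled RPM in the total fraction was 13.5 times that in AGO1-IP (exact 95% interval 8.24 to 22.7). With the filter at a mean RPM of at least 1, limma called it lower in AGO1-IP in all 3 genotypes.

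**Figure D2:**
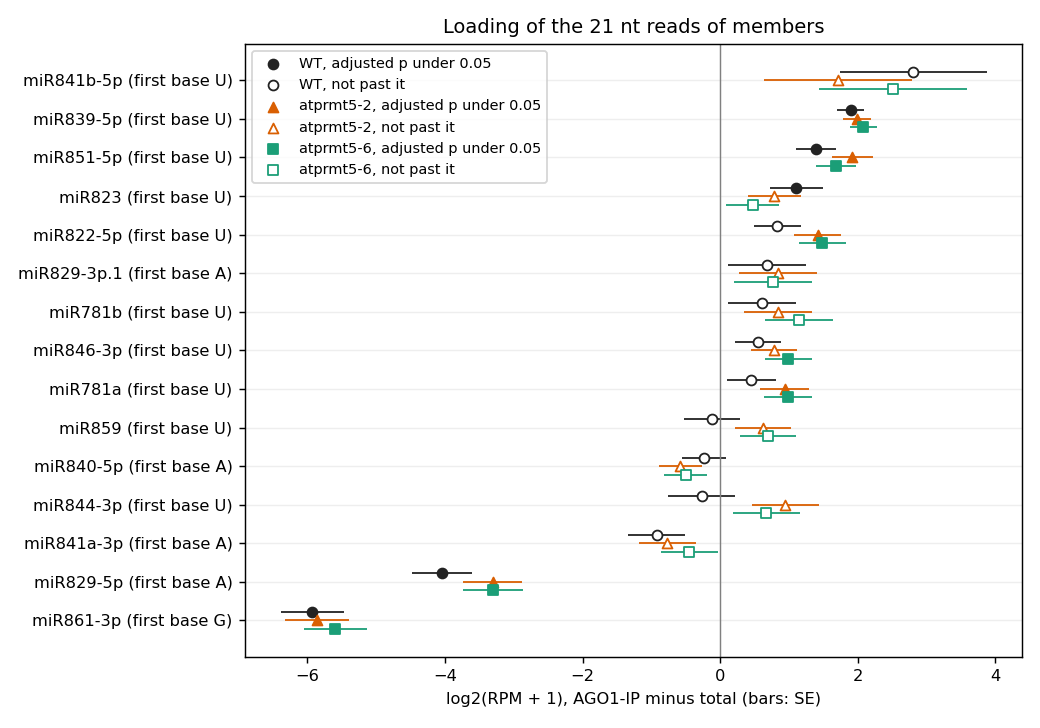
Loading of the 15 members past the filter, as the difference of log2(RPM + 1) between AGO1-IP and total, for each genotype with its standard error from limma (2 libraries a group). Filled symbols passed an adjusted p of 0.05. The members beginning with U lie mostly above 0, and miR829-5p (A) and miR861-3p (G) lie at -3.30 or below in every genotype.

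The annotated first base split the tested members. For miRNAs annotated longer than the counted reads, such as miR829-3p.1 and miR840-5p, the first base of the reads themselves is not known. Of the 10 tested members beginning with U, 8 had a loading above 0 in wild type and all 10 in each mutant, and none was called lower. Of the 5 others, 4 begin with A and 1 with G, none was called higher, and 2 were called lower in every genotype. Tested miRNAs outside the members showed the same order, with a median wild-type loading of 0.46 for 79 beginning with U, -2.06 for 14 with A, -0.83 for 13 with C and -5.49 for 7 with G, so the split is not particular to these members. These calls and signs are on the authors' scale. Rescaled to miRNA reads, 2 of the 10 members beginning with U (miR839-5p and miR841b-5p) stayed above 0 in wild type, and miR840-5p and miR841a-3p, both beginning with A, were called lower in all 3 genotypes. Over all 57 listed members pooled by fraction, 36 of 41 beginning with U had a higher RPM in AGO1-IP, and the exact interval of the ratio lay above 1 for 13 and below 1 for none. Of 10 beginning with A, 4 were higher in AGO1-IP, and the interval lay above 1 for 1 and below 1 for 5. Of 5 beginning with C, 4 were higher in AGO1-IP, and the interval lay above 1 for 2 and below 1 for 1. The 14 members with reads in AGO1-IP alone count as higher here, some on 1 read, and AGO1-IP was sequenced deeper. These pooled ratios are also on the authors' scale, on which a miRNA that kept its share of miRNA reads had a higher RPM in AGO1-IP. They were not rescaled to miRNA reads, so a ratio above 1 need not mean a larger share of them. The same count was not made over all listed miRNAs.

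Among precursors with at least 5 arm reads in each fraction, the balance of the arms differed most between fractions for MIR829 and MIR841a. The precursor of miR829 gave 99 reads of its 5p strand and 32 of its 3p strands in the total fraction, a 5p share of 75.6% (exact 95% interval 67.3 to 82.7), and 11 against 492 in AGO1-IP, a share of 2.19% (1.10 to 3.88). The 3p side is annotated as 2 products, miR829-3p.1 at 24 nt and, next to it, miR829-3p.2. miR829-3p.1, annotated as beginning with A like the 5p strand, gave 24 of the 32 reads of the 3p side in the total fraction. In AGO1-IP it gave 259 of the 492. The counted reads are shorter than its annotated 24 nt, so their own first base is not known. Whether the first base separates these reads from the 5p strand was therefore not tested. miR829-3p.2 begins with C, and its pooled RPM in AGO1-IP was 5.13 times that in the total fraction (2.56 to 12). Its RPM in AGO1-IP was 11.2 and 11.3 in wild type and 2.45 to 3.26 in the mutants, without overlap, but it was below the filter, and with the filter at a mean RPM of at least 1 none of its mutant differences was called. miR829-3p.1 is near identical to miR845a, with 2 mismatches over 20 compared bases, so its reads are uncertain. Its reads of 24 nt, 1.74 to 6.57 RPM of that length in the total fraction, were listed at 0 in AGO1-IP.

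MIR841a moved the opposite way. Its 5p strand, beginning with U, gave 10 reads against 63 of the 3p strand in the total fraction (13.7%, exact 95% interval 6.77 to 23.8) and 329 against 184 in AGO1-IP (64.1%, 59.8 to 68.3). The 3p strand, beginning with A, was at 4.29 to 14.3 RPM in the total fraction and 3.88 to 5.87 RPM in AGO1-IP, and its loading of -0.92, -0.77 and -0.45 was not called. miR841b-5p, which differs from miR841a-5p at 1 base, had uneven replicates, with 0 and 21 reads in the wild-type total libraries. Its wild-type loading of 2.81 had an SE of 1.07 (limma adjusted p = 0.0599), and it ranged from 0.77 to 4.85 as single libraries were left out. The copies are near identical, and how reads were split between them is not stated. The 5p strand of miR841a lies on the strand opposite a coding exon of the histone H2A gene HTA4.

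Other precursors showed smaller differences or none beyond their intervals. miR851-5p held 98.8% of arm reads in the total fraction (97.4 to 99.6) and 99.7% in AGO1-IP (99.6 to 99.8), and miR846-5p held 2.13% and 2.19%. All 128 arm reads of miR822 in the total fraction were 5p, as were all but 1 in AGO1-IP. miR862, from an intron of the chromatin remodeller gene PKL, gave only its 5p strand, with 10 and 180 reads. For miR840, which lies in an exon of AT2G02750 outside its coding part, the 5p strand beginning with A made up 88.5% (79.9 to 94.3) in the total fraction and 80.0% (75.7 to 83.8) in AGO1-IP. For miR868, whose 5p strand begins with U, that strand made up 93.1% (77.2 to 99.2) and 76.2% (69.8 to 81.9). The intervals of miR840 and of miR868 overlap between fractions. All arm intervals cover counting error only and pool 6 libraries.

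**Figure D3:**
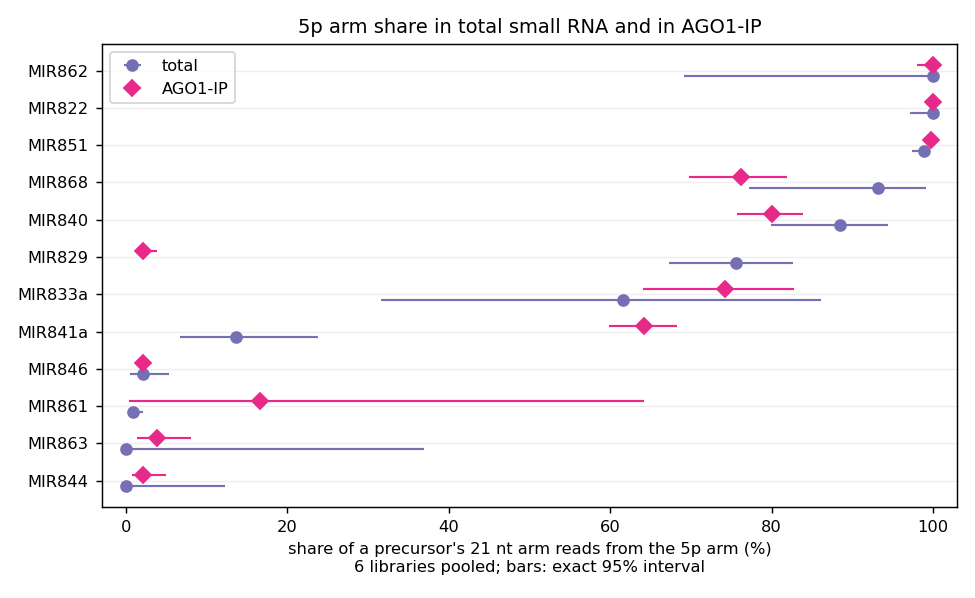
Share of a precursor's 21 nt arm reads that come from the 5p arm, in percent, in the total fraction and in AGO1-IP, each with 6 libraries pooled and an exact 95% interval, for precursors with at least 5 reads in each fraction. MIR829 falls from 75.6% to 2.19% and MIR841a rises from 13.7% to 64.1%, while the other precursors differ by less.

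Several members are annotated at 22 nt and were found mainly at that length. RPM of 22 nt reads are per 1000000 reads of 22 nt and are not on the scale of the 21 nt values. The same limma fit was made on the 22 nt tables after their values were seen, with 22 miRNAs past a mean RPM of at least 5, of which 6 were members (miR777, miR850, miR853, miR830-5p, miR840-5p and miR833a-5p).

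miR777 was at 26 and 27.1 RPM of 22 nt in the wild-type total fraction and at 19.5 to 51.7 RPM in the mutants. In AGO1-IP it was at 143 and 117 RPM in wild type, 243 and 253 RPM in atprmt5-2 and 259 and 241 RPM in atprmt5-6. The mutants were above wild type in AGO1-IP without overlap, whereas in the total fraction the groups overlapped. The AGO1-IP differences of 0.93 and 0.94 (SE 0.42) had limma adjusted p = 0.126 and 0.413, and were not called. The summed 22 nt RPM of all miRNAs moved with them, from 2057 and 2062 in wild-type AGO1-IP to 2772 to 4371 in the mutants, and rescaled to those sums the miR777 differences were -0.07 and 0.42.

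miR850 was at 14.8 and 2.71 RPM of 22 nt in the wild-type total fraction and at 8.01 to 13.8 RPM in the mutants. In AGO1-IP it was at 34.7 and 46.9 RPM in wild type, 79.6 and 140 RPM in atprmt5-2 and 82.0 and 79.7 RPM in atprmt5-6, again without overlap between wild type and mutants. The differences of 1.37 and 0.98 (SE 0.58) had limma adjusted p = 0.107 and 0.508, and were 0.39 and 0.47 after the same rescaling. miR853 had no 21 nt read in any library and was at 16.2 to 54.8 RPM of 22 nt in AGO1-IP and at 0 to 6.03 RPM in the total fraction.

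At 22 nt no member was called between mutant and wild type in either fraction, and limma called 13.6% of the 22 miRNAs in atprmt5-2 total small RNA and 0 in each of the other 3 comparisons. At an unadjusted p under 0.05 there were 2 members higher in atprmt5-2 AGO1-IP (miR777 and miR850), 1 in atprmt5-6 AGO1-IP (miR777) and 0 in the total fraction. No count tool was run on this length. Against total small RNA, 5 of the 6 were called higher in AGO1-IP in wild type, with 77.3% of all 22 tested called higher, 4.55% lower and 81.8% in either direction. In atprmt5-2, 5 were higher and 1 lower, with 90.9%, 9.09% and 100%, and in atprmt5-6, 5 were higher, with 90.9%, 4.55% and 95.5%. miR777 had a loading of 2.24, 2.92 and 3.04 and miR850 of 2.43, 3.21 and 2.73. The exception was miR840-5p, which begins with A. It was at 7.42 to 14.9 RPM of 22 nt in the total fraction and at 5.68 to 10.4 RPM in AGO1-IP, and its loading of 0.05, -0.98 and -0.01 was called lower in atprmt5-2 (limma adjusted p = 0.0258). Rescaled to the 22 nt miRNA reads, none of the 6 was called higher in any genotype, and miR840-5p was called lower in both mutants. The count over all 22 tested miRNAs on that scale is not given.

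**Figure D4:**
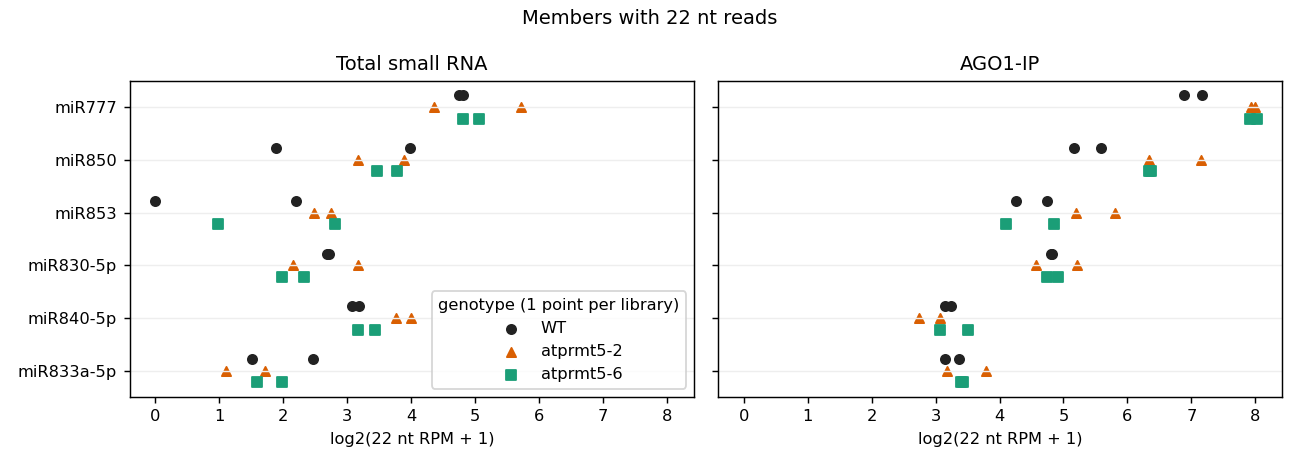
Level of the 6 members tested at 22 nt in each library, as log2(22 nt RPM + 1), with 1 point per library and colours and symbols for genotype. In AGO1-IP the 4 mutant libraries lie above the 2 wild-type libraries for miR777 and miR850.

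Between mutant and wild type, the main test called no member at 21 nt in any of the 4 comparisons, each with 15 members tested. limma called 15.6% of all tested miRNAs in atprmt5-2 total small RNA, 20.3% in atprmt5-6 total small RNA, 3.91% in atprmt5-2 AGO1-IP and 0.781% in atprmt5-6 AGO1-IP. At an unadjusted p under 0.05, 5 members were lower in atprmt5-2 and 6 lower and 1 higher (miR823) in atprmt5-6 in the total fraction. Over all 128 tested miRNAs, 37 were lower and 6 higher in atprmt5-2, and 51 lower and 9 higher in atprmt5-6. In AGO1-IP only miR839-5p was lower among the members, in atprmt5-2, beside 11 of all tested miRNAs lower in atprmt5-2 and 12 in atprmt5-6. edgeR with the authors' denominators and DESeq2 called none in the 4 comparisons, and edgeR with TMM called none but miR829-5p, lower in atprmt5-2 AGO1-IP. Rescaled to miRNA reads, limma called 4 members lower in each mutant in the total fraction. On that scale it called 38 of all 128 tested miRNAs in atprmt5-2 and 51 in atprmt5-6, 5 of them higher in each. Fits with a replicate block also called members in the total fraction, but a pairing of wild-type with mutant replicates is not established. Which families were left out was decided with results of these data known, so the members' counts describe the members alone. The 2 mutants share their wild-type libraries, so their values are not independent.

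In total small RNA the members' median difference was -0.57 in both mutants, beside -0.44 and -0.67 over all tested miRNAs. In AGO1-IP it was -0.34 and -0.27, beside 0.04 and -0.14. The families left out were chosen with results of these data known and were not taken out of all tested miRNAs. How near these medians lie is therefore no result about the members. The members' summed RPM in the total fraction was 1187 ± 118 (SD, n = 2) in wild type, 840 ± 106 in atprmt5-2 and 821 ± 64.7 in atprmt5-6. In AGO1-IP it was 3494 ± 158, 2657 ± 98.0 and 2753 ± 46.6. Wild type was above both mutants in each fraction without overlap. Without miR839-5p the AGO1-IP sums were 521 ± 35.0, 529 ± 43.1 and 481 ± 41.5 and overlapped, while the total sums were 385 ± 2.14, 304 ± 93.5 and 283 ± 41.9.

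miR839-5p was lower in all 4 mutant libraries than in both wild-type libraries of the same fraction. The differences were -0.57 in each mutant in the total fraction (SE 0.20, limma adjusted p = 0.0701 in atprmt5-2 and 0.0559 in atprmt5-6). In AGO1-IP they were -0.48 in atprmt5-2 (adjusted p = 0.257) and -0.39 in atprmt5-6 (adjusted p = 0.396). In AGO1-IP the difference stayed negative under all 13 alternatives (-0.62 to -0.41 and -0.42 to -0.23) and was called under none. In total small RNA it was called in each mutant without the filter, after rescaling to miRNA reads and with identical sequences summed. It was near the median of all miRNAs, and other scalings moved it to as little as -0.02 in atprmt5-2 and to 0.23 in atprmt5-6. miR822-5p, also cut by DCL4, had differences of -0.72 and -0.90 in the total fraction and -0.14 and -0.24 in AGO1-IP, none called. The star strand miR822-3p had 1 read in all.

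The chromatin-directed members differed in level and in how well they could be measured. miR823 was at 10.5 and 14.4 RPM in the wild-type total fraction, 12.7 and 26.3 RPM in atprmt5-2 and 30.8 and 21.7 RPM in atprmt5-6. Both atprmt5-6 libraries were above wild type, and atprmt5-2 overlapped it. The difference was 1.01 in atprmt5-6 (SE 0.39, limma adjusted p = 0.0645), against a median of -0.67 over all miRNAs, and it was called when values were centred on the median miRNA. In AGO1-IP miR823 overlapped between genotypes, at 24.6 and 30.9 RPM in wild type and 26 to 40.3 RPM in the mutants, with differences of 0.22 and 0.38. miR773a, which targets the DNA methyltransferase gene MET2, was at 1.05 and 1.45 RPM in wild-type AGO1-IP and at 2.33 to 3.98 RPM in the mutants, without overlap. It was below the filter of 5, and no mutant difference of it was called with the filter at a mean RPM of at least 1. miR778, which targets the histone methyltransferase genes SUVH5 and SUVH6, was at 0.590 to 1.45 RPM in AGO1-IP. Of miR773b neither strand had a 21 nt read.

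The F-box members were sparse. miR859, which guides cleavage of F-box transcripts, was at 7.0 and 8.35 RPM in the wild-type total fraction, 3.96 and 2.72 RPM in atprmt5-2 and 4.29 and 1.55 RPM in atprmt5-6. Both mutants were below wild type without overlap. The differences were -1.01 (limma adjusted p = 0.110) and -1.24 (adjusted p = 0.0511), and in AGO1-IP -0.28 and -0.42. There atprmt5-2 overlapped wild type, and atprmt5-6, at 4.78 and 5.12 RPM, lay below its 6.72 and 7.24 RPM. The lowest mutant value rests on 2 reads. miR774a had 0 reads in the total fraction and 1 or 2 reads in each AGO1-IP library.

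Among the 15 tested members, the lowest differences in the total fraction of atprmt5-2 were those of miR844-3p and miR829-5p, and neither was called. miR844-3p was at 12.3 and 5.31 RPM in wild type, 3.96 and 0.907 RPM in atprmt5-2 and 3.58 and 2.33 RPM in atprmt5-6, with 7 and 7 reads in wild type and 1 to 5 in the mutants. All mutant libraries were below wild type. The differences were -1.57 (SE 0.49, limma adjusted p = 0.0503) and -1.23 (adjusted p = 0.0744), and in AGO1-IP -0.36 and -0.29. miR829-5p was at 26.3 and 21.2 RPM in wild type, 14.3 and 5.44 RPM in atprmt5-2 and 15 and 8.53 RPM in atprmt5-6, also below wild type without overlap. Its differences were -1.31 (SE 0.43, adjusted p = 0.0603) and -0.99 (adjusted p = 0.0969). Leaving out 1 library gave adjusted p under the threshold for miR844-3p in 2 of 4 cases and for miR829-5p in 1 of 4 in atprmt5-2.

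**Figure D5:**
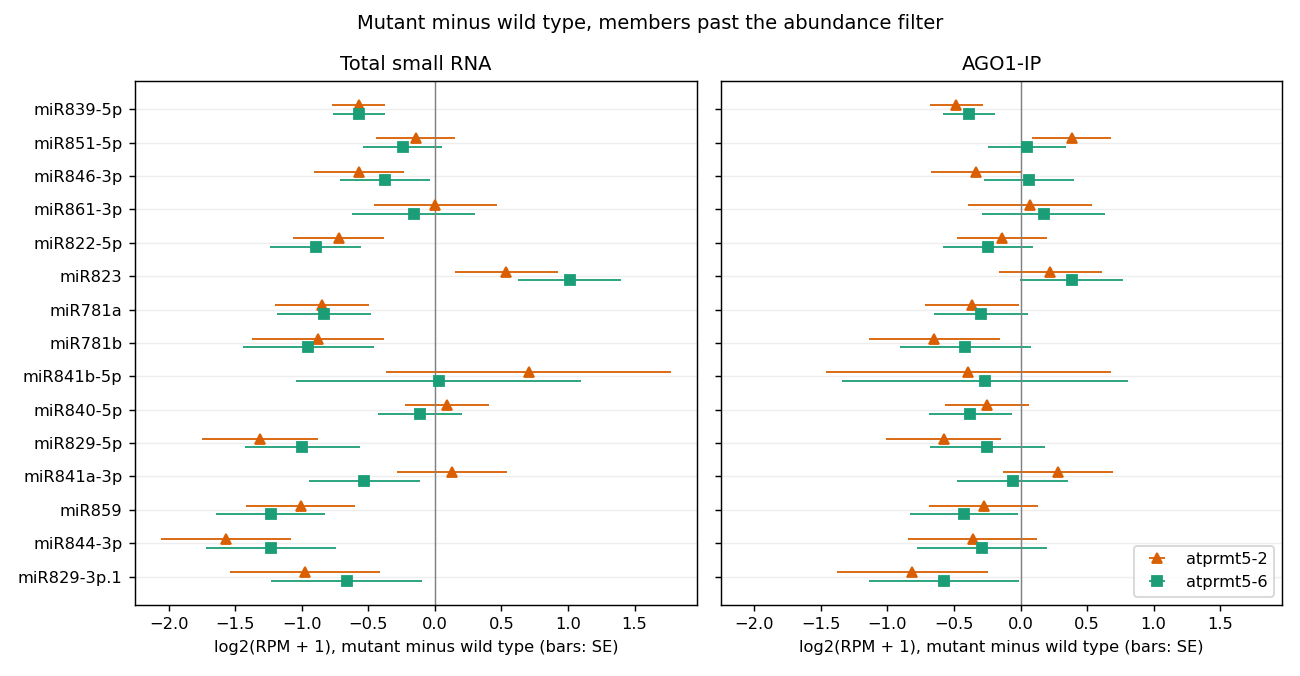
Difference of log2(RPM + 1) between each mutant and wild type for the 15 members past the filter, in the total fraction and in AGO1-IP, with standard errors from limma (2 libraries a group). None passed an adjusted p of 0.05. In total small RNA most points lie below 0, as does the median of all tested miRNAs (-0.44 and -0.67), and miR823 lies at 0.54 and 1.01.

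The remaining tested members were not called either. miR781a was at 33.3 and 18.2 RPM in the wild-type total fraction and at 9.98 to 17.4 RPM in the mutants, without overlap, and its differences were -0.85 (limma adjusted p = 0.113) and -0.83 (adjusted p = 0.0878). Its identical copy miR781b had differences of -0.88 and -0.95, with overlap in atprmt5-2, and miR829-3p.1 of -0.98 and -0.66, with overlap in both mutants. miR851-5p differed by -0.15 and -0.24 in the total fraction and 0.38 and 0.05 in AGO1-IP, none called. miR861-3p differed by 0.00 and -0.16 in the total fraction, with replicates of each mutant that differed more than 2-fold and spanned the wild-type values. miR840-5p was at 9.07 to 15 RPM in the total fraction in all genotypes, and its differences were 0.09 and -0.11. The lectin-directed miR846-3p had differences of -0.57 and -0.37 in the total fraction and -0.34 and 0.07 in AGO1-IP.

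No loading difference between mutants and wild type passed the test of that difference. limma called 0 of 15 members in atprmt5-2 and 0 in atprmt5-6, with 0 and 0.781% of all tested miRNAs called. None of the members had an unadjusted p under 0.05, beside 18 and 16 of all 128 tested miRNAs. edgeR and DESeq2 called none either. The members' median loading difference was 0.23 and 0.44, beside 0.42 and 0.46 over all tested miRNAs. The widest were miR844-3p at 1.21 (SE 0.69) and 0.94 and miR841b-5p at -1.10 (SE 1.51) and -0.29. Standard errors of the loading difference ran from 0.28 for miR839-5p to 1.51 for miR841b-5p.

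Members below the filter were followed by reads. miR841a-5p had 10 reads in the total fraction and 329 in AGO1-IP, and its pooled RPM was 5.79 times higher in AGO1-IP (exact 95% interval 3.11 to 12.2). It was at 14.2 and 11.1 RPM in wild-type AGO1-IP and at 4.72 to 9.87 RPM in the mutants, without overlap. miR868-5p was at 6.72 and 6.05 RPM in wild-type AGO1-IP and at 2.36 to 2.82 RPM in the mutants, also without overlap, and at 10.5 and 7.59 RPM against 0 to 3.88 RPM in the total fraction. With the filter at a mean RPM of at least 1 it was called lower in atprmt5-2 total small RNA (-2.57, limma adjusted p = 0.00655). Under the same lower filter, miR777 (-1.71, adjusted p = 0.0285) was called lower and miR863-3p (1.78, adjusted p = 0.0173) higher in that comparison, and none of the 14 added members was called in the other 3. miR863-3p had 0 reads in both wild-type total libraries, 4 and 2 in atprmt5-2 and 1 and 1 in atprmt5-6, and miR777 3 and 3 against 0 and 1 in atprmt5-2. These calls rest on at most 10 reads in a total library. miR862-5p was at 3.82 and 4.48 RPM in wild-type AGO1-IP and 3.41 to 7.08 RPM in the mutants, with overlap.

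The other role lists held few reads. miR842, the lectin-directed neighbour of miR846, had 9 reads in the total fraction and 54 in AGO1-IP, and its pooled ratio of 1.06 had an exact 95% interval of 0.517 to 2.43. miR838, which lies in an intron of DCL1 on the same strand, had 5 and 47 reads (ratio 1.65, 0.661 to 5.33). miR847, which targets the auxin repressor gene IAA28, had 1 and 50 reads (ratio 8.80, 1.51 to 355). miR857, which targets the laccase gene LAC7 and is known to rise in low copper, had 3 and 16 reads (ratio 0.939, 0.269 to 5.03). No difference of these members between genotypes was called by limma when the filter was left out.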

How the data were processed

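Small RNA of closed buds was measured in 12 libraries, deposited as 48 tables, 1 for each library and read length of 21, 22, 23 and 24 nt. Per the file headers the deposited values are RPM. SAMtools 1.9, Bowtie2, Trimmomatic 0.36 and the build TAIR10 are named in the submitters' processing notes, with no role stated there. Dividing the 21 nt RPM by the smallest step of a library gave whole numbers, within 0.01 reads, and so read numbers and denominators. A missing value was taken as 0. The 23 nt tables were not used, since that of wild-type total replicate 1 was a constant multiple of its 21 nt table for 195 miRNAs.

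limma 3.58.1 (R) with an intensity trend was run on log2(RPM + 1) over all 12 libraries and 6 groups, with Benjamini-Hochberg adjustment over the 128 miRNAs of mean RPM of at least 5. Adding 1 RPM shrinks the fold of scarce miRNAs. edgeR 4.0.16 and DESeq2 on recovered reads, other pseudocounts, filters and scalings, replicate blocks and leaving out each library were alternatives. The scripts were tested on simulated data. Ratios of pooled reads are on the authors' RPM scale and have exact 95% intervals, for counting error only. Nothing but the wording of the labels says that replicates are separate plants, so p-values measure the spread between these libraries. Replicates of each group differed by more than read sampling gives (chi-square divided by its degrees of freedom, 23.4 to 499).

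Members, the families left out, role lists and tests were chosen with earlier results of these data known. Named were members past the filter, called members, the 5 most abundant below the filter, the 5 most abundant in each wild-type fraction, the 5 with the largest wild-type loading in each direction, and the role lists. The members tested at 22 nt, miR863-3p, miR865-5p and other members named for few or no reads were named after their values were seen. TAIR10.1 coordinates are RefSeq's.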

Additional observations from a re-analysis of the deposited data

How the results depend on the processing

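With 2 libraries a group, the calls near the threshold depended on settings. Over all tested miRNAs in atprmt5-2 total small RNA, 20 of 128 were called in the main result, 25 with a pseudocount of 5 and 38 scaled to miRNA reads. There 25 of 180 were called with a mean RPM of at least 1, 25 of 98 with identical sequences summed and 32 of 316 without a filter. In atprmt5-6 total small RNA the calls were 26, 38, 51, 29, 34 and 35 in the same order, and 22 of 128 centred on the median miRNA. Members called in atprmt5-2 total small RNA numbered 0 in the main result and 1 with a pseudocount of 5. They numbered 3 with a mean RPM of at least 1 or with identical sequences summed, 4 scaled to miRNA reads and 5 without a filter. In atprmt5-6 total small RNA they numbered 0, and 1 with a pseudocount of 5, without a filter or centred on the median miRNA (miR823, higher). There they numbered 2 with identical sequences summed and 4 scaled to miRNA reads. Fits with 1 library left out keep 1 library in a group, and their calls are not counted here. With only 2 replicate numbers per group, a pairing of wild-type with mutant replicates is not established. Replicate differences of any 2 mutant groups correlated at 0.482 to 0.774. Those of wild-type total correlated with every other group at only -0.104 to 0.141. Those of wild-type AGO1-IP correlated with the mutant groups at 0.095 to 0.353. A replicate block by label called 3 and 7 members in total small RNA, against 33 and 67 of all 128 tested miRNAs. A replicate block with file-name numbers called 2 and 2, against 29 and 43. A crossed replicate block called 2 and 1. It was chosen after seeing the data, because wild-type and atprmt5-2 replicate differences in the total fraction correlated negatively, though weakly (r = -0.104 over 128 miRNAs). Over all tested miRNAs it called 32 and 38. edgeR with TMM called 1 member in atprmt5-2 AGO1-IP, against 10 of all 128.

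Members called in wild-type loading numbered 5, and 9 with a mean RPM of at least 1 or no filter, 8 scaled to miRNA reads and 10 centred. Over all tested miRNAs these were 52 of 128, 67 of 180, 72 of 316, 89 of 128 and 83 of 128. In atprmt5-2 the members called numbered 6 and without a filter 11, in atprmt5-6 7, without a filter 11 and with DESeq2 4. Over all tested miRNAs these were 71 of 128 and 95 of 316, then 77 of 128, 89 of 316 and 50 of 128. Scaled to miRNA reads, values called on either scale that changed sign were wild-type miR781a (-1.04), miR823 (-0.35), miR846-3p (-0.95) and miR851-5p (-0.12), atprmt5-2 miR781a (-0.38) and atprmt5-6 miR781a (-0.37) and miR846-3p (-0.39). For 22 nt reads, alternatives were chosen after the values were seen. Loading calls among the 6 tested members went from 5, 6 and 5 to 0, 1 and 1 scaled to miRNA reads and to 1, 1 and 1 centred. Mutant calls among them went from 0 to 1 in atprmt5-2 total small RNA under a replicate block. In atprmt5-2 AGO1-IP they went from 0 to 1 with a pseudocount of 5. Counts over all 22 tested miRNAs under these settings are not given. Whether these changes are particular to the members therefore cannot be read from them, and their cause was not tested.

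Depth is a further limit. In total libraries 3 reads were worth 2.15 to 5.25 RPM, at or above the level of most members. Only 15 to 20 members had at least 3 reads in a total library.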
